A study of Rattus norvegicus with 10 samples.

Results

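The 10 genes of glutathione and antioxidant defence described here were measured in 10 rat lacrimal glands: the glutathione peroxidases Gpx1, Gpx2 and Gpx3, the glutathione transferases Gsta1, Gstp1 and Gstm1, the thioredoxin reductase Txnrd1, the detoxifying enzymes Nqo1 and Hmox1, and the transcription factor Nfe2l2. They were found by gene symbol in the array's platform annotation, which gave 10 of 4737 named genes and 22 of 8799 probe sets, each a group of short probes that together give 1 value on an Affymetrix array. Of these 22, 20 were bright enough to be tested, and they covered all 10 genes. The lacrimal gland secretes the watery part of the tear film, and the greater superficial petrosal nerve carries its parasympathetic supply. The 5 denervated glands had lost this supply by nerve section 7 days earlier. They were set against 5 control glands: 3 contralateral glands at 7 days, 1 gland of an unoperated animal and 1 gland 7 days after a sham operation. The titles call 3 of the control glands contralateral, while their free-text descriptions place them on the operated side, and the titles were followed. The labels give no strain, sex, age or treatment, and leave unsaid whether numbered glands are different animals. The p-values therefore reflect the spread among these 10 samples alone, part of which may be technical.

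Glutathione peroxidases use the thiol of glutathione to reduce hydrogen peroxide and lipid peroxides, and those studied here carry selenocysteine in the active site. Glutathione transferases join glutathione to electrophiles, and thioredoxin reductase keeps a second thiol system reduced with NADPH. The protein made from Nfe2l2, NRF2, is held back in resting cells by KEAP1. When it is freed by oxidants it binds antioxidant response elements, and Nqo1, Hmox1, Txnrd1, Gclm, Gpx2 and several transferases are among its known targets.

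The core of that element, TGACNNNGC, was searched for on both strands of the promoter windows of RefSeq (GRCr8), which run from 250 bases before to 50 bases after each annotated start. Windows were found for 9 of the 10 genes, 10 windows in all. A match was present for 5 genes, while 12.1% of all 33469 windows of this length hold one. A match is only a run of letters and was not shown to be bound. In the windows of Nfe2l2 and Gsta1 the match lay after the start, at positions 38 to 46 and 30 to 38, with the start as position 0. The 3 upstream matches are shown because they belong to members whose levels are given below, in the direction of transcription, with the 9 matching bases in capitals and the bases that flank them in lower case.
Gpx2: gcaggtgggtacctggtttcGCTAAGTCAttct
Gstp1: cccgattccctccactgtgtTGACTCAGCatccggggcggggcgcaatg
Txnrd1: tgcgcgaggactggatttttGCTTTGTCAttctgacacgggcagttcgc
The Gpx2 stretch is chr6:101230034-101230066 on the minus strand, with the match on the opposite strand at positions -13 to -5. The Gstp1 stretch is chr1:210769738-210769786 on the minus strand, with the match at positions -61 to -53. The Txnrd1 stretch is chr7:22755954-22756002 on the minus strand, in 1 of its 2 windows, with the match on the opposite strand at positions -78 to -70. No match was found in the windows of Gpx1, Gpx3, Gstm1 or Nqo1. Hmox1 had no window, and sequence outside the windows was not searched, so a gene without a match may still have the element.

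A set of 3 arrays stood apart from the rest. The gland denervated 1 lay with contralateral 1 and sham, at -51.7, -50.0 and -54.3 on the first principal component, against -5.30 to 38.2 for the other 7 glands. In these 3 glands Dnase1, a secreted nuclease of the gland, had intensities of 329146, 621186 and 721537, against 762 to 15271 in the other 7. Denervated 2 and 5 lay highest on the second component, at 31.1 and 70.1. Of 10 markers fixed for lacrimal acinar cells 8 were on the array, and none was at the floor, the intensity under which values have no order, in all glands. Their mean log2 intensity ran from 12.26 to 13.95 in denervated glands and from 13.08 to 13.94 in control glands. Dnase1 is 1 of the 8, so this mean follows in part the 3 arrays that stood apart. The 8 did not share a direction: 4 averaged higher in denervated glands. Values here are scaled intensities without unit, and the level of 1 probe set cannot be set against that of another.

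Denervated glands were first compared with all 5 control glands. By the titles only 1 of these, the sham gland, had itself been operated on. Surgery and loss of the nerve can therefore not be told apart here. Denervated glands averaged higher for 19 of the 20 tested member probe sets, and for every tested probe set of 9 of the 10 genes, Gpx1 being the exception. The median log2 difference of the 20 probe sets was 0.69, with a range from -0.18 to 1.25. The background was lower: 44.6% of all 6118 tested probe sets had a difference above 0, and their median was -0.08. A difference above 0.5 was seen in 13 of the 20, against 16.9% of all probe sets. None of the differences passed the test, a limma fit across all tested probe sets with Benjamini-Hochberg adjustment. The threshold was an adjusted p under 0.05, which 0% of all probe sets reached, and the members had adjusted p from 0.451 to 0.893. At an unadjusted p under 0.05, 4 of the 20 were higher and 0 lower, against 9.68% of all probe sets, 5.02% higher and 4.66% lower. Without denervated 1 this member count was 7, but the share of all probe sets also grew, to 18.1%, and 70 of all probe sets passed the adjusted threshold, with 0 members among them. The member count was 2 without denervated 4, where 8.65% of all probe sets were called, and 2 without denervated 5, where 6.46% were. With no filter on dim probe sets it was 5 of 22, counted in either direction, with 8.34% of all 8740 probe sets called. The same 4 were among these, so the added call was 1 of the 2 dim probe sets. The filter had left out M21210_i_at of Gpx1, which was lower in denervated glands, so these directions hold for the tested probe sets only. The 20 probe sets share the same 10 arrays and some share a gene, so they are not independent of each other. Each is a mixture over all cells of a gland, in which more cells of a type and more RNA per cell cannot be told apart.

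**Figure D1:**
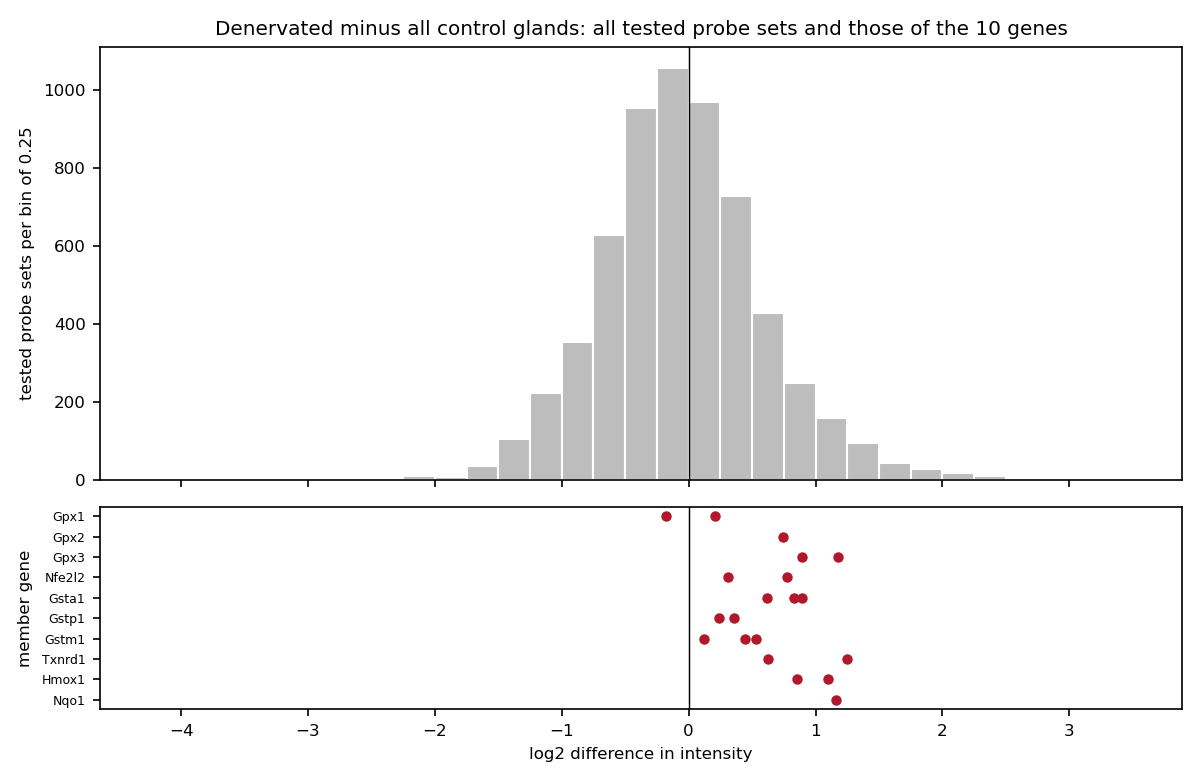
Upper panel: number of tested probe sets (y axis) by log2 difference in intensity, denervated minus all control glands (x axis), for all 6118 tested probe sets. Lower panel: the 20 tested member probe sets by gene on the same axis, of which 19 lie above 0 and 1, a probe set of Gpx1, lies below it.

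Nfe2l2, the regulator, had the only tested member probe set whose denervated and control glands did not overlap. Its probe set rc_AI177161_at had intensities of 1984, 2477, 1994, 3317 and 2290 in denervated glands 1 to 5. It had 796, 1785 and 1432 in contralateral glands 1 to 3, 1880 in the unoperated gland and 1326 in the sham gland. All 5 denervated glands thus lay above all 5 controls, the lowest of them by a narrow margin over the unoperated gland, where 0.637% of all tested probe sets had all denervated glands above. The mean log2 intensity averaged 11.21 ± 0.30 in denervated glands against 10.43 ± 0.49 in the controls (SD, n = 5 each), which is a difference of 0.78 ± 0.32 (SE), or 1.71-fold, with a 95% interval from 0.08 to 1.47 (limma adjusted p = 0.459).

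The second Nfe2l2 probe set, rc_AI177161_g_at, was built from the same sequence tag and did not follow the first closely. It had 685, 2065, 1458, 2289 and 2124 in denervated glands, against 1265, 1706 and 375 in contralateral glands, 2729 in the unoperated and 1566 in the sham gland. Here the groups overlapped throughout, with the highest value in the unoperated gland. The log2 difference was 0.31 ± 0.52 (adjusted p = 0.866), and it was -0.14 when contralateral 3 was left out. Over the 10 glands Pearson's r between the log2 intensities of both probe sets was 0.39 (Spearman's rho 0.54), a description of these arrays.

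Gpx2, a peroxidase of epithelia, had the smallest adjusted p of the members. Its probe set rc_AA800587_at had 3845, 5328, 9142, 6307 and 3529 in denervated glands. It had 2403, 3372 and 3220 in contralateral glands, 3290 in the unoperated and 3649 in the sham gland. Of the 5 denervated glands 4 lay above all controls, and denervated 5 lay below the sham gland alone. The mean log2 intensity averaged 12.37 ± 0.56 in denervated glands against 11.62 ± 0.23 in the controls (SD, n = 5 each), which is a difference of 0.75 ± 0.28 (adjusted p = 0.451).

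Gpx3, the peroxidase that is secreted, had 2 probe sets, both higher on average in denervated glands. At rc_AI172411_at the intensities were 3677, 7293, 5798, 4067 and 9044 in denervated glands, against 3596, 3325 and 2721 in contralateral glands, 1421 in the unoperated and 5534 in the sham gland. All denervated glands were above all contralateral glands, and the sham gland was above 2 of the denervated ones. The difference was 0.90 ± 0.36 (adjusted p = 0.459). The dimmer probe set, D00680_at, had 119, 1355, 1766, 602 and 237 in denervated glands, against 149, 871 and 190 in contralateral glands, 120 in the unoperated and 226 in the sham gland. Denervated 2 and 3 were highest, and denervated 1, contralateral 1 and the unoperated gland were under the floor of 156.2 and so have no order. The difference was 1.17 ± 0.75 (adjusted p = 0.634), and it was 0.76 without denervated 3 and 1.63 without denervated 1.

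Gpx1, the peroxidase of the cytosol and mitochondria, was the gene without a common direction. At X12367cds_s_at denervated glands had 25684, 34507, 35782, 31567 and 29340. The contralateral glands had 34498, 38870 and 38178, the unoperated gland 29859 and the sham gland 36014. The values lay close together in both groups, with a difference of -0.18 ± 0.19 and a 95% interval from -0.58 to 0.22 (adjusted p = 0.768). At X07365_s_at the difference was 0.21 ± 0.26 (adjusted p = 0.807), from 0.06 without denervated 4 to 0.38 without denervated 1, with 11034 to 26586 in denervated and 11330 to 18267 in control glands.

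The last Gpx1 probe set, M21210_i_at, was too dim to be tested. It had 76.2, 46.5, 42.5, 29.5 and 77.6 in denervated glands, against 537, 360 and 164 in contralateral glands, 127 in the unoperated and 969 in the sham gland. All denervated glands and the unoperated gland were at or under the floor, so the denervated values have no order. With such values set to the floor in both groups, the denervated mean was 2.20-fold lower than the control mean. The suffix _i_at marks a probe set with fewer probes than the design called for. Its direction is opposite to that of X07365_s_at and the same as that of X12367cds_s_at, the brightest of the 3.

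The alpha class transferase Gsta1 had 3 probe sets, all of the _f_at kind, which match several members of a gene family, so that Gsta1 cannot be told from its close relatives. At X78848cds_f_at the intensities were 3568, 4724, 5133, 8863 and 6371 in denervated glands, against 2969, 3287 and 4365 in contralateral glands, 3592 in the unoperated and 3731 in the sham gland. All denervated glands but 1 were above all controls and denervated 1 was the one within their range. The log2 difference was 0.62 ± 0.27 (adjusted p = 0.471).
At S72505_f_at the pattern over the glands was close to this one (Pearson's r 0.87, Spearman's rho 0.85, n = 10 glands). The intensities were 1009, 2438, 2429, 4136 and 2157 in denervated glands, against 674, 1391 and 1219 in contralateral glands, 1480 in the unoperated and 1767 in the sham gland. Again 4 denervated glands were above all controls and denervated 1 was not, with a difference of 0.83 ± 0.40 (adjusted p = 0.528). At K01932_f_at the difference was 0.89 ± 0.52 (adjusted p = 0.598), and it was 0.35 without the unoperated gland, whose 245 was far below the 1255 to 2093 of the other controls.

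Gstp1, the pi class transferase, and Gstm1, of the mu class, differed less. For Gstp1 the probe set rc_AI012589_s_at had 21761, 28577, 27412, 17571 and 19670 in denervated glands, against 20100, 20307 and 10118 in contralateral glands, 25915 in the unoperated and 24287 in the sham gland. The groups overlapped, contralateral 3 was lowest, and the difference of 0.24 ± 0.27 (adjusted p = 0.787) was 0.0053 without that gland. The other Gstp1 probe set, X02904cds_s_at, differed by 0.36 ± 0.26 (adjusted p = 0.671), or 0.17 without contralateral 3, and followed the first over the glands (Pearson's r 0.92, Spearman's rho 0.84, n = 10 glands).
The 3 Gstm1 probe sets differed by 0.12 ± 0.25, 0.53 ± 0.41 and 0.45 ± 0.36 for J02810mRNA_s_at, X04229cds_s_at and H32189_s_at (adjusted p from 0.676 to 0.893). Leaving out 1 gland, the first was 0.04 (without denervated 5) to 0.24 (without the sham gland), and the second 0.27 (without contralateral 3) to 0.84 (without the sham gland). In the first, denervated glands had 2421 to 3871 and control glands 2357 to 3969, so that the sham gland was the highest of all 10. The _s_at suffix marks probes shared between transcripts, and mu class genes resemble each other, so these values may include relatives of Gstm1.

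**Figure D2:**
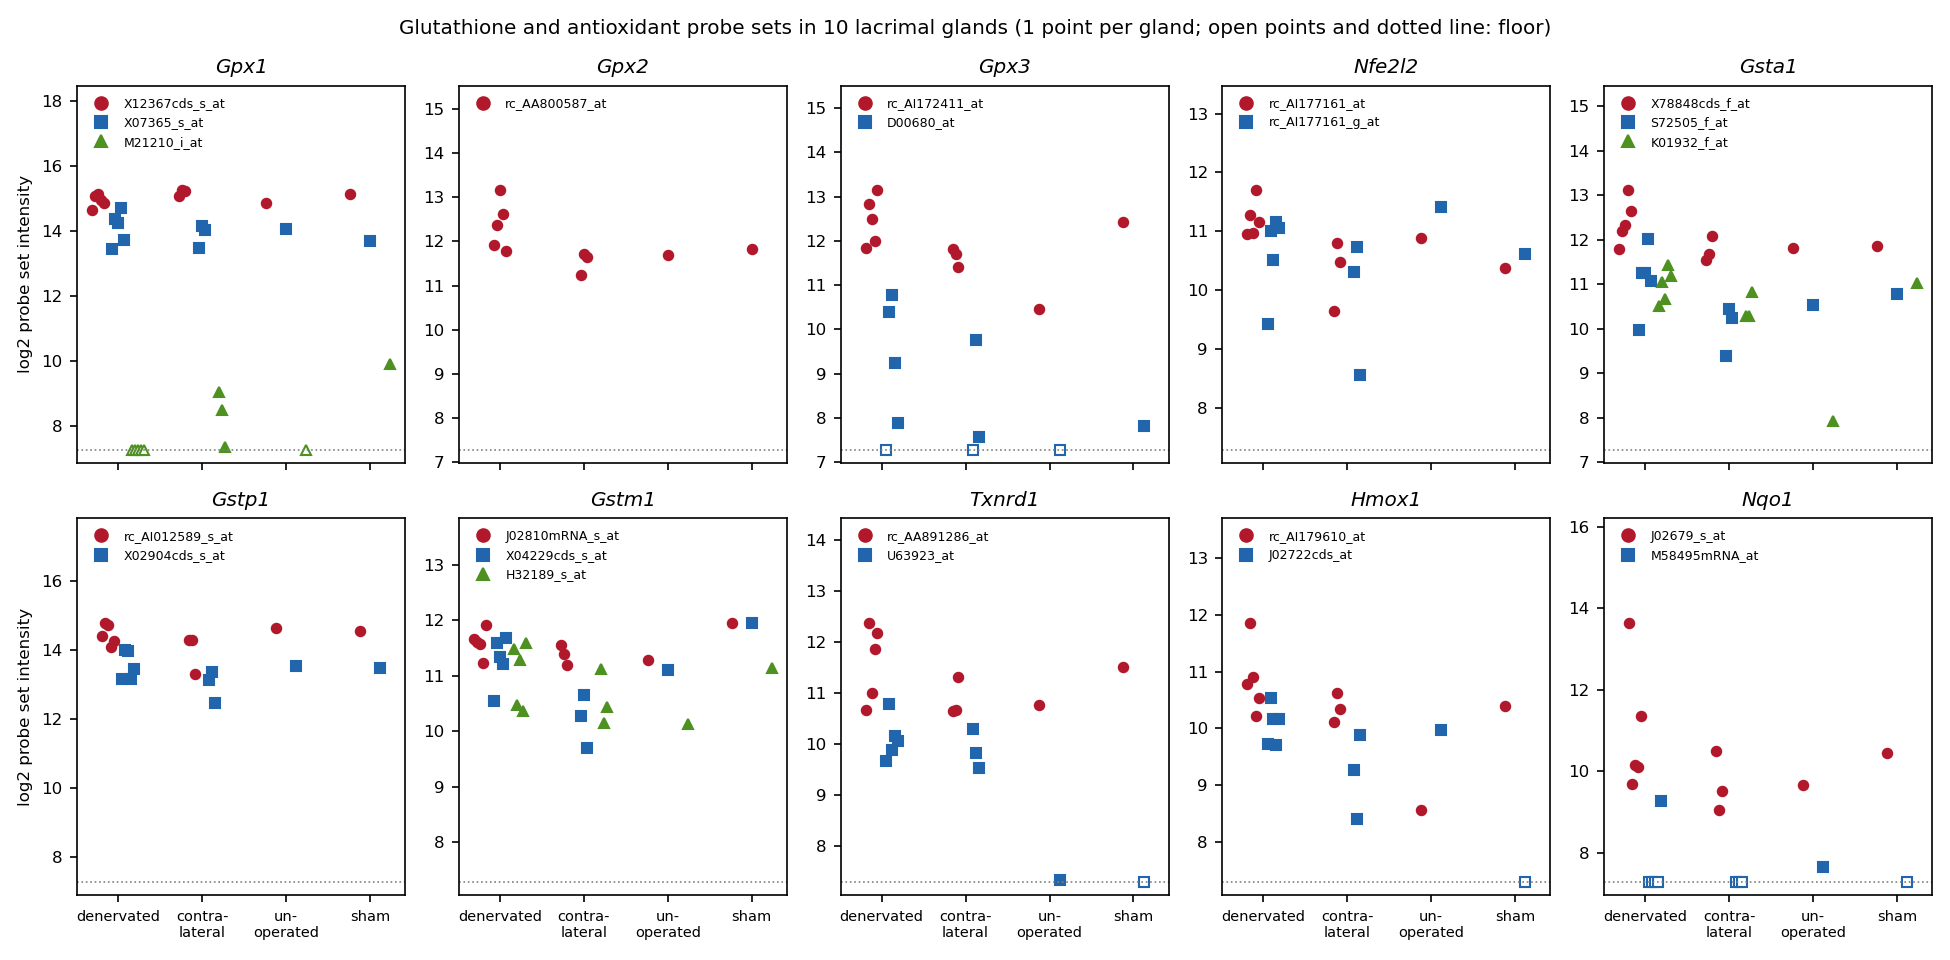
Log2 intensity (y axis) of all 22 member probe sets in each gland (1 point per gland), in 1 panel per gene, with denervated, contralateral, unoperated and sham glands along the x axis. Colours and symbols mark the probe sets, and open points on the dotted line are at the floor. For Nfe2l2 rc_AI177161_at all 5 denervated glands lie above all controls, and for Nqo1 J02679_s_at denervated 1 stands alone at the top.

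Txnrd1, which reduces thioredoxin, had 2 probe sets with different control patterns. At rc_AA891286_at the intensities were 1611, 5315, 2035, 3711 and 4599 in denervated glands, against 1609, 1627 and 2552 in contralateral glands, 1744 in the unoperated and 2906 in the sham gland. Denervated 2, 4 and 5 lay above all controls and the other 2 denervated glands within their range, with a difference of 0.63 ± 0.37 (adjusted p = 0.599). At U63923_at denervated glands had 805, 1762, 942, 1131 and 1061, against 1257, 905 and 737 in contralateral glands, 160 in the unoperated and 112 in the sham gland. The difference of 1.25 ± 0.62 (adjusted p = 0.530) rests on the unoperated and sham glands, which were next to or under the floor. It was 0.93 with the floor at the 30th percentile, and the difference from contralateral glands alone was 0.22 ± 0.48, or 0.04 without contralateral 3.

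Hmox1, heme oxygenase 1, which breaks down heme and is abundant in macrophages that clear red cells, had 2 probe sets. At rc_AI179610_at the intensities were 1766, 3720, 1907, 1186 and 1481 in denervated glands, against 1108, 1581 and 1289 in contralateral glands, 376 in the unoperated and 1336 in the sham gland. Denervated 2 was highest, denervated 4 and 5 lay within the control range, and the difference was 0.86 ± 0.45 (adjusted p = 0.559), or 0.49 without the unoperated gland. At J02722cds_at denervated glands had 848, 1490, 1148, 833 and 1144, against 616, 338 and 945 in contralateral glands, 1006 in the unoperated and 106 in the sham gland. The low gland was thus the unoperated one in the first probe set and the sham gland in the second, and the second difference, 1.10 ± 0.54 (adjusted p = 0.528), was 0.68 without the sham gland. Pearson's r between both probe sets was 0.13 (Spearman's rho 0.42) over the 10 glands.

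Nqo1, a quinone reductase, was far higher in 1 denervated gland than in the rest. At J02679_s_at the intensities were 12839, 833, 1150, 1110 and 2640 in denervated glands, against 1459, 532 and 736 in contralateral glands, 811 in the unoperated and 1399 in the sham gland. Denervated 1 was far above all other glands, denervated 5 came next, and the other 3 denervated glands lay within the control range. The difference was 1.16 ± 0.65 (adjusted p = 0.585) with denervated 1 and 0.50 without it. The other probe set, M58495mRNA_at, was not tested: only denervated 5, with 621, and the unoperated gland, with 203, were above the floor, and denervated 1 had 42.1. The high value of denervated 1 was therefore seen in 1 of the 2 Nqo1 probe sets.

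The second comparison set denervated glands against the 3 contralateral glands, in a fit of 3 classes over all 10 glands. It shares the denervated and contralateral glands with the first, so its values are set beside the others and are no repeat of them. Of the 20 member probe sets 19 averaged higher in denervated glands, where 49.5% of all probe sets did, 13 of them by more than 0.5, where 21.4% of all did. The median log2 difference was 0.69 against -0.01 for all probe sets. No member passed (adjusted p from 0.634 to 0.947), and 0% of all probe sets did. At an unadjusted p under 0.05, 4 members were higher and 0 lower, against 7.16% of all probe sets, 4.15% higher and 3.01% lower. Without denervated 1 the member count was 8, with 13.4% of all probe sets called. It was 1 without contralateral 1, with 5.85% of all called, and 1 without denervated 4, with 7.19%. It was 2 without contralateral 3, denervated 2 or denervated 3, with 4.38%, 4.56% and 7.04% of all called. With quantile normalization 1 member was called among 6.82% of all, and with arrays centred on the median 1 among 6.06%. With no filter on dim probe sets 5 members, counted in either direction, were called among 6.28% of all.

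All 5 denervated glands were above all contralateral glands for Gpx2, for Gpx3 at rc_AI172411_at and for Nfe2l2 at rc_AI177161_at, 3 of 20 member probe sets, where 2.19% of all probe sets showed this. The reverse, all denervated glands below, held for 0 of the 20 and for 2.55% of all probe sets. Outside the 20 it held for Gpx1 at M21210_i_at, which was too dim to be tested. There all 5 denervated glands were under the floor, against 537, 360 and 164 in contralateral glands, the last of these just above it. The log2 differences were 0.84 ± 0.34 for Gpx2, 0.82 ± 0.43 for this Gpx3 probe set and 0.90 ± 0.38 for this Nfe2l2 probe set, the last of which was 0.57 without contralateral 1. For Gstm1 at X04229cds_s_at the difference was 1.06 ± 0.39, from 1493, 3075, 2581, 2378 and 3279 in denervated glands, against 1238, 1607 and 830 in contralateral glands. The unoperated and sham glands, with 2205 and 3982, were within or above the denervated range, so at this probe set the contralateral glands were the low controls.

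**Figure D3:**
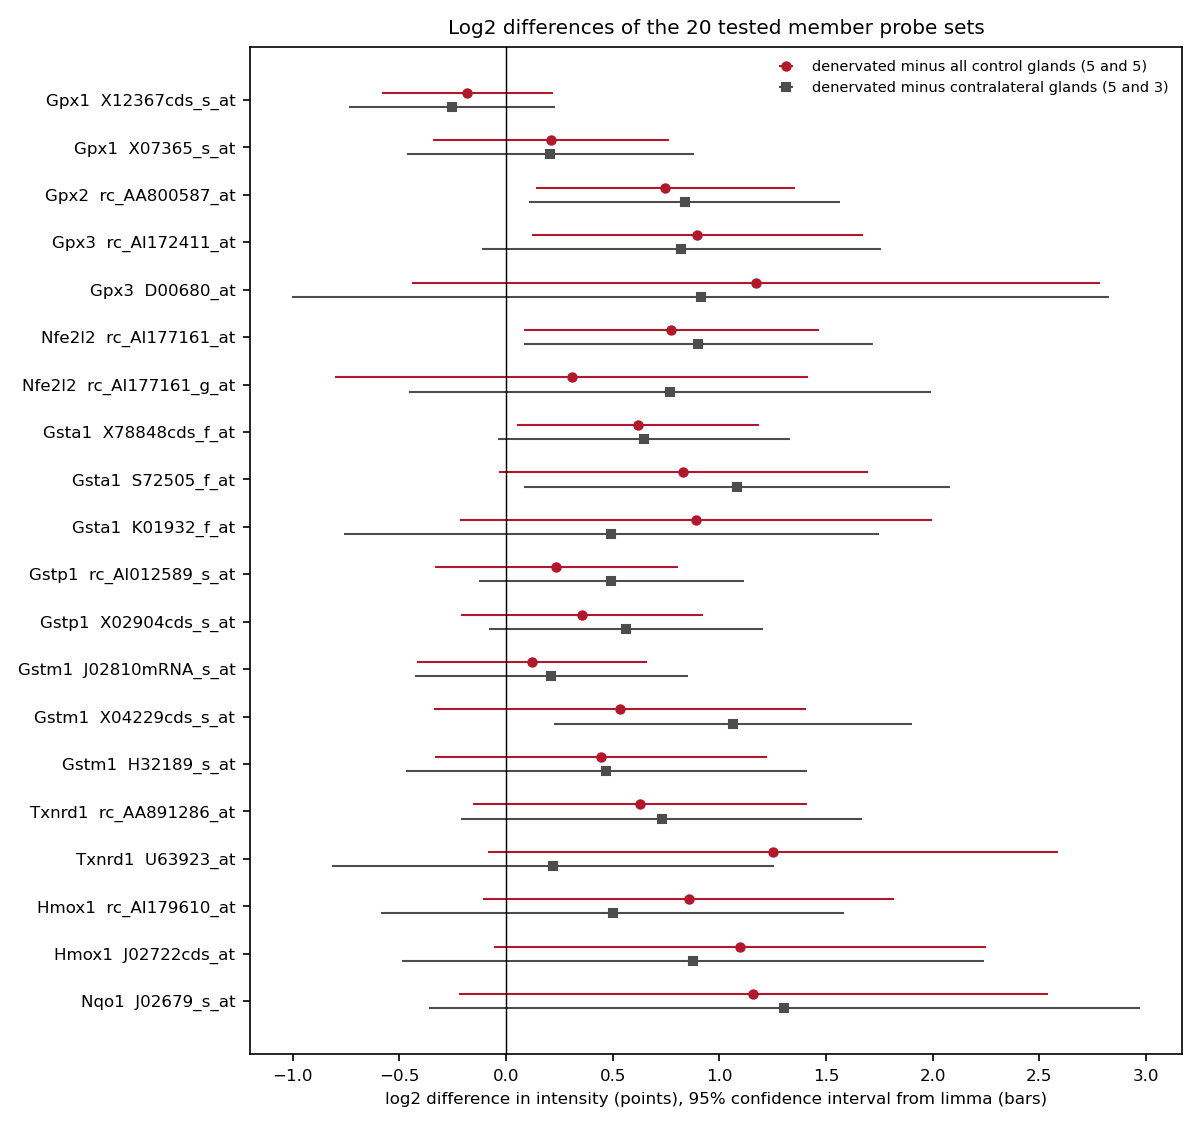
Log2 difference in intensity (x axis) of the 20 tested member probe sets (y axis), denervated minus all control glands (circles) and denervated minus contralateral glands (squares), with 95% confidence intervals from limma as bars. Of the 20 probe sets, 19 lie above 0 in each comparison, and 4 of the 20 intervals lie wholly above 0 in each.

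The members did not stand equally high in all denervated glands. The median log2 deviation of the 20 tested probe sets from their control means was 0.18 in denervated 1, and 0.82, 0.59, 0.78 and 0.76 in denervated 2 to 5. In control glands it was -0.03, 0.14 and -0.00089 in contralateral 1 to 3, -0.08 in the unoperated and 0.31 in the sham gland. Denervated 1 thus lay within the range of the control glands and below the sham gland, and the other 4 lay above all controls. Each control gland is part of the mean it was set against, so control glands lie nearer to it in part by construction. In denervated 3 all 20 probe sets were above the control mean, and in denervated 1 this held for 12. Denervated 2 had the highest value of all 10 glands in 6 probe sets and denervated 4 in 5, while the lowest value was in contralateral 1 or contralateral 3 in 5 probe sets each.

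The members were also compared within arrays that resembled each other. Denervated 1 minus the mean of contralateral 1 and sham gave a median of -0.11 with 8 of 20 probe sets higher, where 50.3% of all tested probe sets were higher. Denervated 3 and 4 minus the mean of contralateral 2, contralateral 3 and the unoperated gland gave 0.66 with 19 of 20 higher, where 44.7% of all were. The difference between these 2 sets was not tested. Without contralateral 1, sham and denervated 1, the median over all other glands was 0.76, with 7 members and 11.7% of all probe sets at an unadjusted p under 0.05, and 0 members past the threshold. Without denervated 2 and 5 it was 0.58, with 1 member and 3.45% of all probe sets at an unadjusted p under 0.05.

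**Figure D4:**
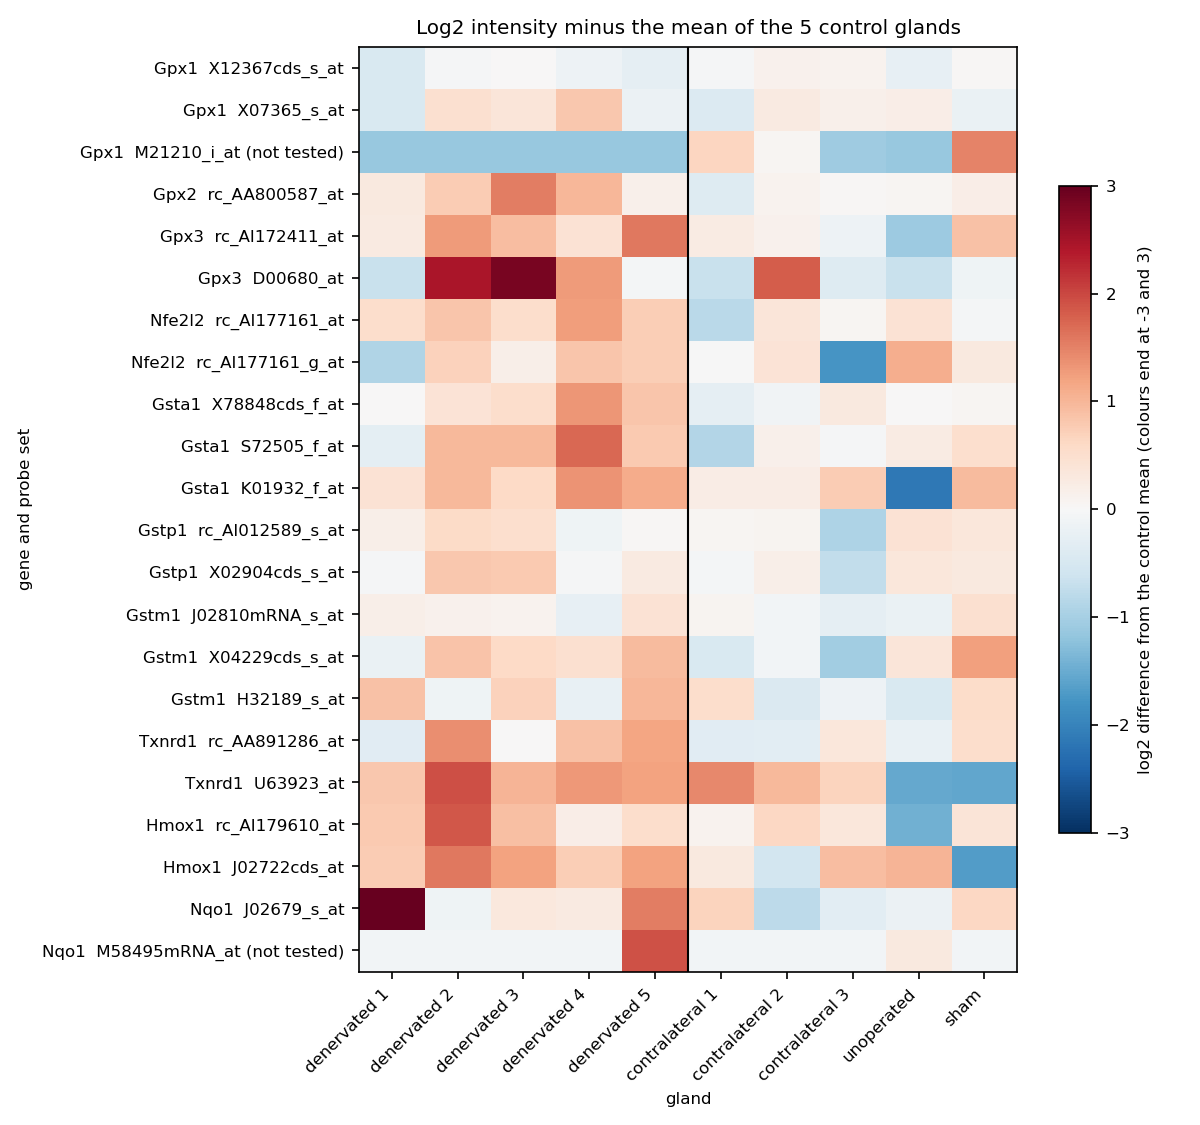
Log2 intensity minus the mean of the 5 control glands (colour, red above and blue below that mean) for the 22 member probe sets (rows) in each gland (columns, denervated glands left of the line). Denervated 2 to 5 are red in most rows, denervated 1 is mixed, and 2 of the rows were not tested.

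Markers of other cell types were also high in some of these glands. Of 11 macrophage markers measured 9 averaged higher in denervated glands, and their mean log2 intensity ran from 11.17 to 11.83 there and from 10.95 to 11.41 in control glands, with denervated 1 at 11.17 and the other 4 denervated glands at 11.56 to 11.83. Apoe was highest of these by difference (1.78), and Csf1r, Aif1, Itgam and Ptprc were each at the floor in 1 or 2 glands. Of 7 fibroblast markers all 7 averaged higher, from 11.66 to 14.83 in denervated and from 11.17 to 12.54 in control glands, with denervated 2 and 5 highest. Adipocyte markers ran from 9.82 to 11.04 in denervated and from 8.98 to 10.10 in control glands. Of 7 myoepithelial and smooth muscle markers 6 averaged higher, from 10.22 to 12.51 in denervated and from 9.77 to 11.10 in control glands, with denervated 1 the lowest of the denervated glands. Of 4 duct markers 3 averaged higher, from 12.61 to 13.23 in denervated and from 12.20 to 12.86 in control glands. Erythroid markers ran from 11.92 to 14.42 in denervated and from 11.22 to 13.36 in control glands. Of 4 nerve and Schwann cell markers 3 averaged higher, from 8.51 to 10.07 in denervated and from 8.48 to 9.30 in control glands. Mast cell markers went both ways, with 3 of 7 higher. Of 5 hepatocyte markers, fixed as those of a tissue absent here, 0 averaged higher. Their mean log2 intensity was 9.85 to 11.33 in denervated and 10.46 to 12.06 in control glands. Such a mean thus does not by itself show that a cell type is present. The part of these cell types in the members' differences was not tested.

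Other genes of the same pathways, from 11 lists, were split between both directions. Of 61 genes tested, by the brightest probe set of each, 33 averaged higher and 28 lower, and their median difference was 0.08. None passed (limma, smallest adjusted p 0.434), and at an unadjusted p under 0.05 there were 7 higher and 3 lower of the 61, against 5.02% higher and 4.66% lower of all tested probe sets. Denervated glands lay above all controls for 0 and below all controls for 1 of the 61, against 0.637% and 1.03% of all tested probe sets. Against contralateral glands 31 of the 61 were higher, with a median of 0.07.

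Among the 13 other transferases tested, 7 averaged higher and 6 lower, with a median of 0.05. Mgst1, a membrane-bound transferase of the endoplasmic reticulum, had 2605, 29112, 20963, 24080 and 36770 in denervated glands, against 2120, 14411 and 12933 in contralateral glands, 4621 in the unoperated and 4350 in the sham gland. Denervated 2 to 5 were above all controls, and denervated 1 was low with contralateral 1, sham and the unoperated gland (log2 difference 1.49 ± 0.67, adjusted p = 0.505). Gstm5 had the same gland low: 217, 1138, 891, 1015 and 1617 in denervated glands, against 107, 612 and 231 in contralateral glands, 105 in the unoperated and 227 in the sham gland (1.77 ± 0.62, adjusted p = 0.437, and 0.42 at another probe set). Mgst3 ran the other way. Its controls lay within 16159 to 17424, while denervated 1 had 18100 and the other 4 denervated glands 7007 to 12306 (-0.61 ± 0.24, adjusted p = 0.451).

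Glutathione is made in 2 steps, and the enzyme of the second, glutathione synthetase, Gss, was the 1 gene of the lists whose groups did not overlap. It had 4087, 3815, 3515, 2610 and 1756 in denervated glands, against 5205, 5318 and 4858 in contralateral glands, 4215 in the unoperated and 6168 in the sham gland. All denervated glands were below all controls, where 1.03% of all tested probe sets showed this, with a difference of -0.76 ± 0.27 (adjusted p = 0.443) and -0.64 ± 0.37 at a second probe set. Gclm, the regulatory subunit of the first step, differed by 0.08 ± 0.50, and Gsr, which reduces oxidised glutathione, by 0.51 ± 0.47. Dpep1, a dipeptidase that takes part in the breakdown of glutathione outside the cell, differed by 1.64 ± 0.51 (adjusted p = 0.435), but by 0.20 at another probe set. Idh1, a source of NADPH, differed by 0.70 ± 0.29 (adjusted p = 0.459). Of the 11 genes of glutathione synthesis and recycling 7 averaged higher and 4 lower.

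Of the thioredoxin system 5 genes were tested, 2 higher and 3 lower. Txnip, which binds thioredoxin and holds it inactive, had 26762, 36720, 36043, 50590 and 24833 in denervated glands, against 12836, 39272 and 9565 in contralateral glands, 9896 in the unoperated and 6112 in the sham gland. Contralateral 2 lay among the denervated glands and the other 4 controls lay below all of them (1.45 ± 0.40, adjusted p = 0.434, and 1.00 ± 0.35 at a second probe set). Of 5 other peroxidases 3 averaged higher and 2 lower. Gpx4, which reduces lipid peroxides in membranes, was at -0.52 ± 0.28 (adjusted p = 0.575) and Prdx2 at 0.50 ± 0.32. Prdx6 was at 0.35 ± 0.23, and at 0.85 ± 0.31 (adjusted p = 0.448) and 0.40 ± 0.41 at its other probe sets. The superoxide dismutases and catalase were split, with Sod1 at -0.18 ± 0.20, Sod2 at 0.20 ± 0.31, Sod3 at 0.25 ± 0.58 and Cat at -0.50 ± 0.29. At their other probe sets Sod1 was at -0.51 and -0.26, and Cat at -0.34 and 0.38.

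Of 10 other known targets of NRF2 in detoxification 5 averaged higher and 5 lower, among them Ephx1, microsomal epoxide hydrolase, with 3211, 11221, 4641, 4768 and 7236 in denervated glands, against 4143, 2979 and 2475 in contralateral glands, 4011 in the unoperated and 3375 in the sham gland. Denervated 2 to 5 were above all controls and denervated 1 was not (0.76 ± 0.32, adjusted p = 0.463). Gsk3b, a kinase that marks NRF2 for degradation, differed by -1.19 ± 0.44 (adjusted p = 0.448) and by -0.40 at another probe set. Cyba, a subunit of the NADPH oxidase that makes superoxide and is carried by phagocytes, differed by 2.08 ± 0.69 (adjusted p = 0.437). Its intensities were 551, 7621, 4253, 3180 and 4967 in denervated glands, against 470, 1395 and 2280 in contralateral glands, 345 in the unoperated and 401 in the sham gland, again with denervated 1 among the controls. Of the smaller lists 4 of 6 heme and iron genes, 1 of 3 selenoproteins, 1 of 2 further regulators and 0 of 1 metallothionein averaged higher. Against contralateral glands alone only 1 of the 6 heme and iron genes was higher, with a median of -0.08. The selenoprotein counted as higher, Selenop, a plasma carrier of selenium, was at 0.50 ± 0.27 (adjusted p = 0.575), but its other probe set was at -1.32 ± 0.55 (adjusted p = 0.462).

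**Figure D5:**
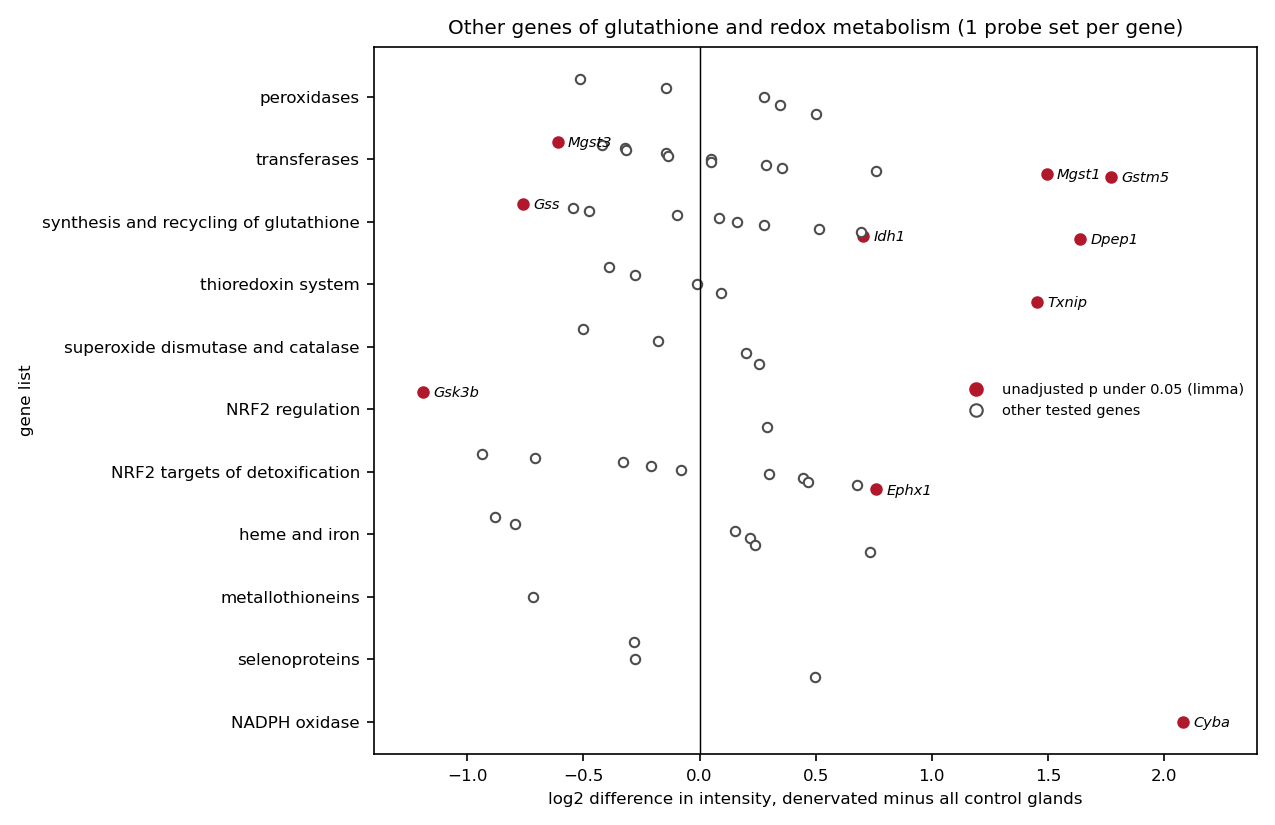
Log2 difference in intensity, denervated minus all control glands (x axis), of 61 other genes in 11 lists (y axis), 1 point per gene at its brightest tested probe set. Filled and named points have an unadjusted p under 0.05 from limma, 7 of them above 0 and 3 below, and none passed after adjustment.

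Probe sets of 1 gene did not always follow each other over the 10 glands. In 12 such pairs Pearson's r of log2 intensity ran from 0.13 for Hmox1 to 0.92 for Gstp1, with a median of 0.42, and in 178 pairs of different members the median was 0.22. The highest r of the 178 was 0.84 (Spearman's rho 0.79), for Nfe2l2 at rc_AI177161_at and Gsta1 at S72505_f_at. At rc_AI177161_g_at, the other Nfe2l2 probe set, r with S72505_f_at was 0.52. The lowest of the 178 was -0.80 (rho -0.67), for Gpx1 at X12367cds_s_at and Nqo1 at J02679_s_at. Denervated 1 had both the lowest value of that Gpx1 probe set and the highest of that Nqo1 probe set. All these r values are descriptions over 10 glands that share arrays and groups.

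The genes whose log2 intensity was most like a member's over the 10 glands were picked as the highest of all tested probe sets with 1 symbol. For Gpx2 they were RT1-S3 (r = 0.87) and Kit (0.85), for Gpx3 Sult1a1 (0.98) and Dynlt1 (0.93), and for Nfe2l2 Hnrnpa2b1 (0.91) and Btg1 (0.90). For Gsta1 they were Cryab (0.90) and Rtn1 (0.89), for Gstp1 Col15a1 (0.90) and Csnk2a1 (0.87), and for Gstm1 Glud1 (0.94) and Ghrhr (0.92). For Gpx1 they were Znrf1 and Nrn1 (both 0.90), for Txnrd1 Nup54 (0.93) and Lpl (0.91), for Hmox1 Cyb5r3 and Cspg5 (both 0.91), and for Nqo1 Egr4 (0.89) and Cd8a (0.87). Without the 2 glands farthest from the member's median, r was 0.92 for Sult1a1 and 0.94 for Glud1. It was 0.48 for Egr4, 0.51 for Cyb5r3 and 0.51 for Col15a1, so that these relations rest largely on those glands.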

How the data were processed

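Values are linear probe set intensities as deposited, 1 per probe set and array. The authors scaled the arrays, as the deposited intensities show: trimmed by 2% at each end, array means ran from 2505 to 2507. The sources used here name no software, and no detection calls were used. With the scaling left as it was, a floor at the 20th percentile of all values (156.2) replaced lower intensities before log2 was taken. Without the array's 59 control features 8740 probe sets remained, and the tests took the 6118 whose mean log2 value exceeded the 30th percentile. Members with fewer bright glands could fall under this filter, as 2 did.

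Symbols came from the platform annotation, updated by gene ID through RefSeq: 7006 probe sets had 1 symbol, 308 several and 1426 none. Differences were tested with limma 3.58.1 in R 4.3.3 (lmFit, eBayes with a variance trend, two-sided, Benjamini-Hochberg over all tested probe sets), with 2 classes for denervated against all control glands and 3 classes for denervated against contralateral glands. The fit was tested on simulated data. With 10 arrays the precision is limited: against all control glands the typical (median) standard error was 0.50 on the log2 scale. The members, lists and the rule for named genes (all member probe sets, up to 3 genes with the smallest p in each list, genes whose groups do not overlap, other genes of the main redox lists by their values, and the 2 most alike genes of each member) were chosen with earlier results of these data known. Alternatives are given in the closing section. Figures were drawn with matplotlib 3.10.9.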

Additional observations from a re-analysis of the deposited data

Results flagged for a closer look

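In groups of 5 glands the highest or lowest gland was checked for a wide gap to the others relative to the whole range (Dixon's test at 95%). Of 43 such groups of member values 6 stood out. In 2 of these the other 4 glands all held the floor value, so that any gland above it stands out by construction. In the other 41 groups 4 stood out, where chance flags about 1 in 20. For the control glands these were contralateral 2 for Gpx3 at D00680_at, with a log2 intensity of 9.77 against 7.29 to 7.82 in the others, and the unoperated gland for Gsta1 at K01932_f_at, with 7.93 against 10.29 to 11.03. The unoperated gland was also apart for Hmox1 at rc_AI179610_at, with 8.55 against 10.11 to 10.63, and contralateral 3 for Gstp1 at rc_AI012589_s_at, with 13.31 against 14.30 to 14.66. For Nqo1 at M58495mRNA_at, denervated 5 with 9.28 was the only denervated gland above the floor of 7.29, and the unoperated gland with 7.66 the only control above it. Denervated 1, with 12839 for Nqo1 at J02679_s_at, was not among the 6.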

How the results depend on the processing

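The 20 member probe sets were refitted under 22 alternatives, of which 3 (arrays that stand apart as a block or left out) were chosen after the data were seen. In each comparison 438 of 439 refitted values kept their direction and their side of the threshold, and no member passed in any. Leaving out each gland, Nfe2l2 at rc_AI177161_g_at was -0.14 (without contralateral 3) to 0.61 against all controls, and Gpx1 at X07365_s_at was -0.00034 (without contralateral 1) to 0.37 against contralateral glands. Leaving out each gland, the members' median was 0.58 to 0.81 against all controls and 0.59 to 0.73 against contralateral glands, and members at an unadjusted p under 0.05 were 2 (without denervated 4 or 5) to 7 (without denervated 1) and 1 (without contralateral 1 or denervated 4) to 8 (without denervated 1), where all glands gave 4 and 4. Against all controls this count was 7 without contralateral 1, sham and denervated 1, and 1 without denervated 2 and 5. Against contralateral glands it was 1 with quantile normalization, 1 with arrays centred on the median, and 1 without denervated 2 and 5. The cause was not tested. Over all probe sets 0 passed against all controls, but 70 without denervated 1 (0 without any other gland) and 1 with 3 sets of arrays as a block. Against contralateral glands 1 passed with no variance trend and 1 with array weights, and 0 without any 1 gland. Centring arrays on the median moved the median difference of all probe sets against all controls to 0.04, against -0.08 as deposited, and that of the members to 0.81. At an unadjusted p under 0.05 there were 592 probe sets against all controls, 384 to 1105 leaving out each gland, 382 with the 3 sets as a block and 211 without denervated 2 and 5. Against contralateral glands there were 438, 268 to 818 leaving out each gland, and 192 without denervated 2 and 5. The gland numbers 1 to 3 of both groups were fitted as a replicate block, with 0 probe sets passing in both comparisons and medians of 0.69 and 0.70. In these fits 6 and 5 members were at an unadjusted p under 0.05, where 11% and 5.43% of all probe sets were. Same-numbered glands deviated together with r of 0.49, 0.04 and 0.16, the first being the highest r of any such combination. Contralateral 2 had 0.18 with denervated 3 and 0.18 with denervated 4, and contralateral 3 had 0.23 with denervated 4. These few values cannot settle whether same-numbered glands came from 1 animal. Values at the floor limit what dim probe sets can show.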
